A study of Mus musculus with 6 samples.

Results

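The arrays compared the chemokines and chemokine receptors of WT and IG27 cells, 3 arrays per line. WT cells are OS3 glial cells, a line immortalized with SV40 from the brain of a newborn male mouse (C3H in the labels, C3H/HeN in the methods of the study), carrying an empty vector. IG27 cells are OS3 cells that received a plasmid for H3.3K27M, a histone H3.3 in which a lysine of the tail is replaced by methionine, as found in diffuse midline gliomas. Both lines grew for 2 days in the same medium with serum, insulin and glucose, and RNA was taken from 3 dishes of each line. The p-values therefore measure the spread between dishes of a line. IG27 cells went through transfection and drug selection of clones, so the mutation and any other difference between the lines cannot be told apart. Members were all genes whose mouse RefSeq symbol names a chemokine (*Ccl*, *Cxcl*, *Xcl1* or *Cx3cl1*) or a chemokine receptor (*Ccr*, *Cxcr*, *Xcr1*, *Cx3cr1* or *Ackr1* to *Ackr4*). Probes were found for 57 of them, 35 ligands and 22 receptors, among 22911 genes named on the array.

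Chemokines are small secreted proteins that draw leukocytes and other motile cells along a gradient by binding receptors coupled to G proteins. Ligands and receptors are classed as CC, CXC, CX3C and XC by the spacing of the first cysteines of the ligand, and CXC ligands that carry an ELR motif before these cysteines attract neutrophils through Cxcr2. Atypical receptors bind chemokines without G protein signaling and often clear them. In the brain, astrocytes and other glia can release Ccl2 and Cxcl10 under inflammatory stimuli, Cxcl12 guides migrating precursors, and Cx3cl1 signals to microglia.

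Levels are given as normalized log2 intensity, the log2 processed signal minus that of the 75th percentile of the array, and differences as log2 fold change, IG27 minus WT. On the 5 arrays with complete scanner output, 33289 to 34623 of 56605 probes (58.8% to 61.2%) were well above background by the scanner flag. IG27 replicate 2 has no such flags, so detection in IG27 cells refers to 2 arrays. Across genes, which are not independent replicates, the arrays correlated with a Pearson r of 0.994 to 0.997 within a line and 0.902 to 0.905 between the lines. *H3f3a*, the gene on the plasmid, had a log2 fold change of -0.26 (SE, standard error, 0.08, limma adjusted p = 0.0237), and an array probe does not read the mutated base. Whether the probe lies within the sequence on the plasmid was not examined. The study detected the mutant protein in IG27 cells by western blot. Of 19 glial markers, 17 were well above background on every WT array and 18 on both complete IG27 arrays, and *Slc1a3*, an astrocyte glutamate transporter, was on no WT array.

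Most chemokine and receptor genes were at or near background in both lines. Of the 57 genes, 31 (20 ligands and 11 receptors) were well above background on no array and 7 on some arrays only, without filling a group. The other 19, 13 ligands and 6 receptors, were well above background on all complete arrays of 1 group or both and were tested. Among these, IG27 cells had higher levels of 13 and lower levels of 5, by limma with p adjusted over 14898 genes (Benjamini-Hochberg) and a threshold of 0.05. The same test called 70.5% of all genes, 30.5% higher and 40% lower, so a call by itself sets no gene apart. The median log2 fold change of the 19 genes was 1.80, and that of all genes tested was -0.07. Of the 19 genes, 10 passed the filter through 1 group alone, 7 of them with no array well above background in the other group, so these numbers are descriptive. With those 7 placed at their bounds, the median was 1.14. It was 0.70 with normexp background correction of the 5 complete arrays and 0.36 over all 57 members without the filter. Among the 9 members well above background on all complete arrays of both groups, 6 were higher and 3 lower, where 69.7% of all such genes were called, 28.6% higher and 41% lower, and the median of the 9 was 0.96. The WT and IG27 values did not overlap in 18 of the 19 genes and in 75.7% of all genes.

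**Figure D1:**
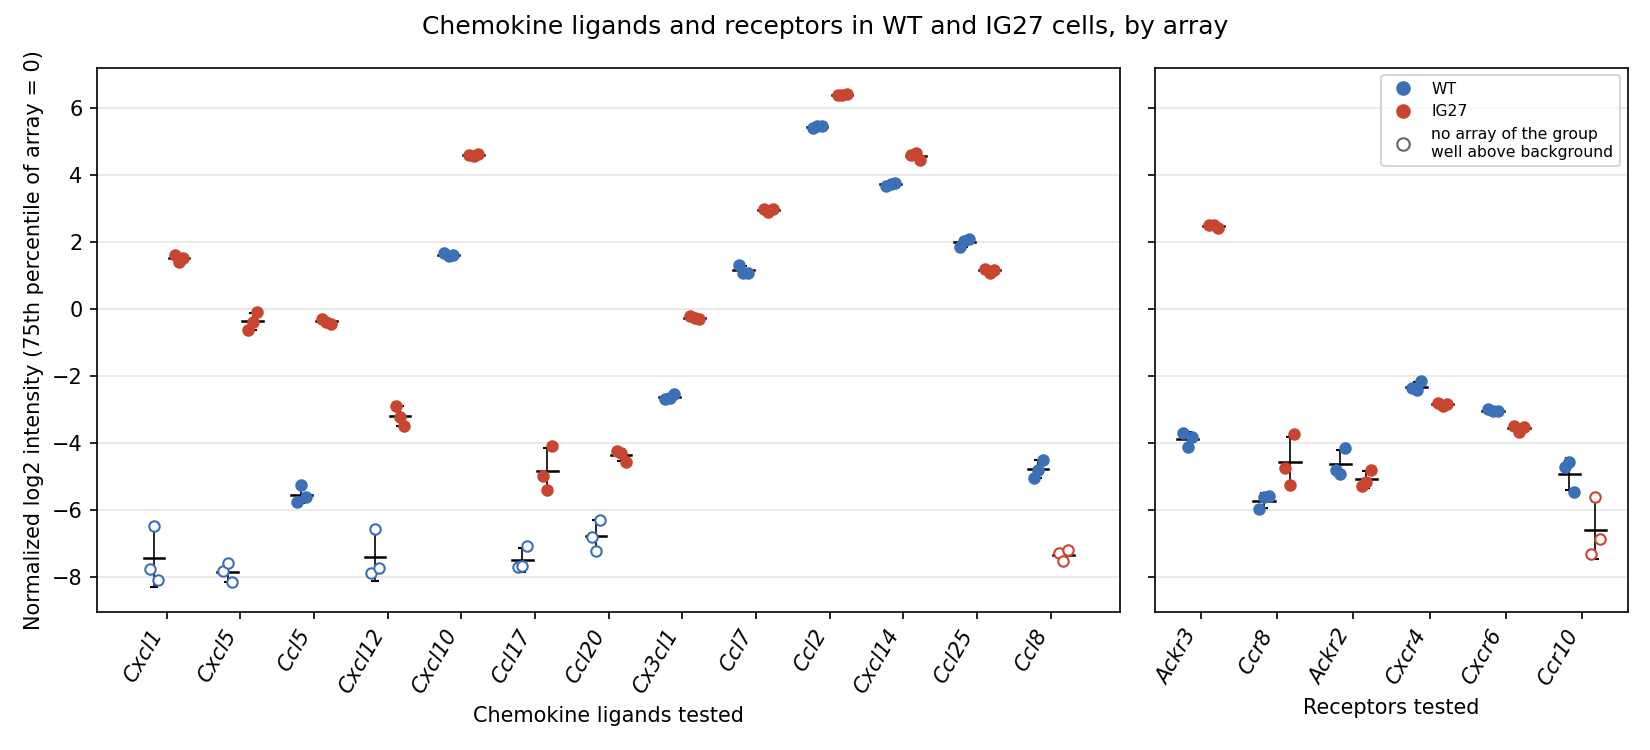
Normalized log2 intensity (y axis, 75th percentile of each array at 0) of the 19 tested chemokine ligands and receptors on each of the 3 WT and 3 IG27 arrays. Horizontal lines are means, bars are SD, and open circles mark a group with no array well above background. The ligands *Cxcl1* and *Cxcl5* and the receptor *Ackr3* show the widest gaps between the lines, and the 2 groups overlap in *Ackr2* alone. Heights of different genes come from different probes and are not compared.

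The ligands with the widest gaps were the neutrophil attractants of the CXC class with an ELR motif, *Cxcl1* and *Cxcl5*, both seen in IG27 cells alone. *Cxcl1* read -7.77, -6.47 and -8.09 on the WT arrays and 1.61, 1.41 and 1.52 on the IG27 arrays. All WT values of *Cxcl1* were at background, and the IG27 values lay close together far above them. The rise was at least 156-fold, which sets the IG27 mean against the lowest signal that counted as well above background on each WT array. The fitted log2 fold change was 8.96 (limma adjusted p = 5.55e-06). Here and below, a p-value beside such a bound belongs to the fitted change, and the bound itself was not tested. *Cxcl5* read -7.83, -7.58 and -8.16 on the WT arrays and -0.63, -0.40 and -0.10 on the IG27 arrays. Here too no WT array was above background and the groups did not overlap. By the same bound *Cxcl5* was at least 42.0-fold higher in IG27 cells (limma adjusted p = 5.52e-07). Of the other genes of this class, *Cxcl2* was well above background on 1 IG27 array, with -5.17, -4.74 and -5.61 in IG27 cells against -7.22, -7.77 and -8.05 in WT cells. *Cxcl3* and *Cxcl15* were well above background on no array. Cross-hybridization among these related genes was not tested, as no probe sequences were used here.

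*Cxcl1*, *Cxcl2* and *Cxcl3* are near neighbors on chromosome 5, and their promoters are printed because they hold an identical match to the NF-kappaB consensus while their signals differed. Each line gives the 250 bases before the start of the gene in RefSeq (GRCm38.p6), from 5′ to 3′ on the strand of the gene, with matches to the consensus on either strand in capitals. Overlapping matches are joined. *Cxcl10* and *Ccl20* are shown as the other members higher in IG27 cells whose promoter in the table holds a match to the consensus. The letters of their matches differ from those of the first 3 genes.
Cxcl1, chr5:90890995-90891244, plus strand: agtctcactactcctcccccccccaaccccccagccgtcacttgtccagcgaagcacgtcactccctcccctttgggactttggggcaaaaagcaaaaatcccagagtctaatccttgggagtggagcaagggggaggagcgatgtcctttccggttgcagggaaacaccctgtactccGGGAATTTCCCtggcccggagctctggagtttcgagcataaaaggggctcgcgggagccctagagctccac
Cxcl2, chr5:90903649-90903898, plus strand: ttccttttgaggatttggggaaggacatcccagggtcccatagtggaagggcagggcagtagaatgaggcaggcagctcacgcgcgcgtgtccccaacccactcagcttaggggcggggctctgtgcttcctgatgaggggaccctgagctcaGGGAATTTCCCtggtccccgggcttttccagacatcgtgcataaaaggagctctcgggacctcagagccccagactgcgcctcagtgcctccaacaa
Cxcl3, chr5:90785851-90786100, plus strand: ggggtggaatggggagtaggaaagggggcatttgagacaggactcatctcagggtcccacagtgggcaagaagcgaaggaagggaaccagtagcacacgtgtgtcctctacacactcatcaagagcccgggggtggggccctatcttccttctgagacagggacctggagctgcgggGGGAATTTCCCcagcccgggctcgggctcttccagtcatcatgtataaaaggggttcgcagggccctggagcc
Cxcl10, chr5:92348890-92349139, minus strand: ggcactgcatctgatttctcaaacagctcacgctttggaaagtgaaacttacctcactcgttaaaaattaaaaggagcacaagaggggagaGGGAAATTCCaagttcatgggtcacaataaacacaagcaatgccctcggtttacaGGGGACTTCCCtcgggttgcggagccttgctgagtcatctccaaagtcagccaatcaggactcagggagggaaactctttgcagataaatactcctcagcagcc
Ccl20, chr1:83116516-83116765, plus strand: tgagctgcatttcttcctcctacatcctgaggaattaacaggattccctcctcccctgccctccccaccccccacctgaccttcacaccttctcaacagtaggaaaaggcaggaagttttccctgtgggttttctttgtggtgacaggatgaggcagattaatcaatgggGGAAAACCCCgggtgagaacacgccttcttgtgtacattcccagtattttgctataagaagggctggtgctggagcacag

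In *Cxcl1*, *Cxcl2* and *Cxcl3* the match GGGAATTTCC begins 71, 97 and 73 bases before the start. *Cxcl10* had matches at 103, 104 and 159 bases before its start, and that of *Ccl20* lay on the other strand at 80 bases. Of the 46 members with a promoter in the table, 11 held a match, and 7.25% of 32851 promoters did. Some members have several promoters in the table, and a member was counted when any of them held a match. The percentages given for each motif are shares of promoters and not of genes, so the member counts cannot be set directly against them. The 46 include *Ccl21b*, *Ccl21d* and *Ccl27b*, which have no probe on the array. *Ccl2*, *Ccl5*, *Ccl7* and *Cxcl5*, which were higher in IG27 cells, have no entry in the table. The matches were found in 3 of 9 members higher, in none of 4 members lower and in 7 of 32 members not tested. *Ackr2*, which was tested and not called, also held matches. An AP-1 motif (TGANTCA) was held by 6 of the 46 and 6.75% of all promoters, an interferon-type motif (GAAA, any 2 bases, GAAA) by 3 and 2.98%, and a TATA box (TATAAA) by 14 and 12.4%, each searched on both strands. *Cxcl10* was the only member that held NF-kappaB, AP-1 and interferon-type matches together. A match is a run of letters, and binding was not measured.

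Among CXC ligands without an ELR motif, *Cxcl10*, *Cxcl12* and *Cxcl14* were higher in IG27 cells. *Cxcl10*, an interferon-inducible ligand of Cxcr3 on T cells, read 1.66, 1.57 and 1.62 on the WT arrays and 4.58, 4.56 and 4.62 on the IG27 arrays. The replicates of *Cxcl10* nearly coincided in both lines. It was 7.83-fold higher in IG27 cells (log2 fold change 2.97, SE 0.05, limma adjusted p = 1.33e-07). *Cxcl12*, the ligand of Cxcr4 and Ackr3, read -7.88, -6.58 and -7.73 on the WT arrays and -2.89, -3.21 and -3.50 on the IG27 arrays. It was at background in WT cells and above it in IG27 cells, at least 5.93-fold higher (limma adjusted p = 9.63e-05). A second *Cxcl12* probe was well above background on no array, with a log2 difference of 2.19. *Cxcl14*, a ligand made by many resting epithelia, averaged 3.71 ± 0.04 (SD, n = 3) in WT and 4.56 ± 0.10 (SD, n = 3) in IG27 cells, with a log2 fold change of 0.85 (limma adjusted p = 5.21e-05). Of the other genes of this class, *Cxcl16* was above background on 1 IG27 array, and *Cxcl9*, *Cxcl13* and *Cxcl17* were on none.

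CC ligands higher in IG27 cells were the monocyte attractants *Ccl2* and *Ccl7*, the T cell attractants *Ccl5* and *Ccl17*, and *Ccl20*, the ligand of Ccr6. *Ccl2*, which acts on Ccr2, read 5.40, 5.45 and 5.45 on the WT arrays and 6.37, 6.39 and 6.42 on the IG27 arrays. The gap was small beside that of the ELR ligands, but wide against the spread of the dishes. It was 1.95-fold higher in IG27 cells (log2 fold change 0.96, SE 0.04, limma adjusted p = 5.95e-06). *Ccl7*, a further ligand of Ccr2, read 1.31, 1.06 and 1.08 on the WT arrays and 2.98, 2.90 and 2.98 on the IG27 arrays. Its groups were far apart, and it was 3.49-fold higher in IG27 cells (log2 fold change 1.80, SE 0.08, limma adjusted p = 4.94e-06).

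*Ccl5*, which attracts T cells and monocytes, read -5.77, -5.25 and -5.61 on the WT arrays and -0.29, -0.39 and -0.44 on the IG27 arrays. It was near background in WT cells, well above it on 2 of 3 arrays, and clearly above it in IG27 cells. The fitted log2 fold change of *Ccl5* was 5.17 (SE 0.14, limma adjusted p = 6.09e-07), but the gene passed the filter through IG27 cells alone, 1 WT array was not well above background, and normexp gave 3.46. *Ccl17*, a ligand of Ccr4, read -7.69, -7.68 and -7.07 on the WT arrays and -4.98, -5.41 and -4.10 on the IG27 arrays. The IG27 values of *Ccl17* were dim and scattered, though all above the WT values, and the rise was at least 1.92-fold (limma adjusted p = 7.47e-04). *Ccl20* read -6.81, -7.22 and -6.29 on the WT arrays and -4.23, -4.31 and -4.56 on the IG27 arrays. It too was dim in IG27 cells and at background in WT cells, at least 2.65-fold higher (limma adjusted p = 1.68e-04).

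*Ccl8* and *Ccl25* were the ligands lower in IG27 cells. *Ccl8*, which in the mouse acts on Ccr8, read -5.03, -4.82 and -4.50 on the WT arrays and -7.28, -7.53 and -7.21 on the IG27 arrays. It was dim in WT cells and at background in IG27 cells, at least 1.48-fold lower. Its fitted log2 fold change was -2.55 (limma adjusted p = 1.87e-05). *Ccl25*, the ligand of Ccr9 known from thymus and gut, averaged 1.98 ± 0.12 (SD, n = 3) in WT and 1.15 ± 0.07 (SD, n = 3) in IG27 cells, with a log2 fold change of -0.83 (limma adjusted p = 1.34e-04). All 3 probes of *Ccl25* were lower in IG27 cells, with log2 differences of -0.83, -0.90 and -0.62. The other 14 CC ligands on the array were well above background on no array, among them *Ccl3*, *Ccl4*, *Ccl11*, *Ccl12* and *Ccl22*.

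*Cx3cl1*, or fractalkine, is tethered to the membrane until it is shed and signals to microglia through Cx3cr1. It read -2.69, -2.67 and -2.53 on the WT arrays and -0.21, -0.28 and -0.30 on the IG27 arrays. Both groups were tight and far from each other, and *Cx3cl1* was 5.15-fold higher in IG27 cells (log2 fold change 2.37, SE 0.06, limma adjusted p = 5.80e-07). *Xcl1* was well above background on no array.

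Of the 6 receptors tested, *Ackr3* and *Ccr8* were higher and *Cxcr4*, *Cxcr6* and *Ccr10* lower in IG27 cells. *Ackr3*, an atypical receptor that binds and clears Cxcl12, read -3.71, -4.11 and -3.81 on the WT arrays and 2.52, 2.49 and 2.43 on the IG27 arrays. It was well above background in both lines, and the IG27 values were far higher and tightly grouped. Its log2 fold change was 6.36 (SE 0.11, limma adjusted p = 1.43e-07), or 81.9-fold. *Cxcr4*, the signaling receptor of Cxcl12, read -2.37, -2.43 and -2.16 on the WT arrays and -2.81, -2.90 and -2.83 on the IG27 arrays. Every IG27 value of *Cxcr4* was below every WT value, by a modest margin (log2 fold change -0.53, SE 0.08, limma adjusted p = 0.00141). A second probe of *Cxcr4* was well above background on no complete IG27 array. Thus of the genes for this ligand and its receptors, *Cxcl12* and *Ackr3* were higher and *Cxcr4* was lower in IG27 cells.

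*Cxcr6*, the receptor of Cxcl16, had a log2 fold change of -0.53 (SE 0.06, limma adjusted p = 4.41e-04), and its second probe differed by -0.60. *Ccr10*, the receptor of Ccl27 and Ccl28, read -4.73, -4.58 and -5.48 on the WT arrays and -7.30, -5.62 and -6.86 on the IG27 arrays. It was dim and scattered in WT cells and at background in IG27 cells, at least 1.33-fold lower. Its fitted log2 fold change was -1.66 (limma adjusted p = 0.0188). *Ccr8*, a receptor of regulatory T cells, read -5.97, -5.61 and -5.58 on the WT arrays and -4.76, -5.25 and -3.74 on the IG27 arrays. The groups of *Ccr8* did not overlap, but only 1 WT array was well above background and the IG27 values were spread out. The fitted log2 fold change was 1.14 (SE 0.38, limma adjusted p = 0.0349), for a gene that passed the filter through IG27 cells alone, and 0.72 without IG27 replicate 3. *Ackr2*, which clears inflammatory CC ligands, was the tested member that was not called, with a log2 fold change of -0.46 (95% confidence interval -1.03 to 0.11, limma adjusted p = 0.124) and overlapping groups. It was -0.22 without WT replicate 3 and -0.16 with slide row as a block. With slide row as a block, *Ccr8* had a log2 fold change of 1.03 (limma adjusted p = 0.188) and *Ccr10* one of -2.01 (limma adjusted p = 0.0548), a fit in which WT replicate 2 alone shares the row of the IG27 arrays. *Ccr8* also lost its call without any 1 of the WT arrays or IG27 replicate 1 (limma adjusted p from 0.0650 to 0.0907), and *Ccr10* without WT replicate 1 or 2 or IG27 replicate 1 or 3 (limma adjusted p from 0.0514 to 0.0681). Under quantile normalization *Ccr8* was not called (limma adjusted p = 0.0918) and *Ackr2* was called lower (limma adjusted p = 0.0470), as it was with the replicate number as a block (limma adjusted p = 0.0152).

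**Figure D2:**
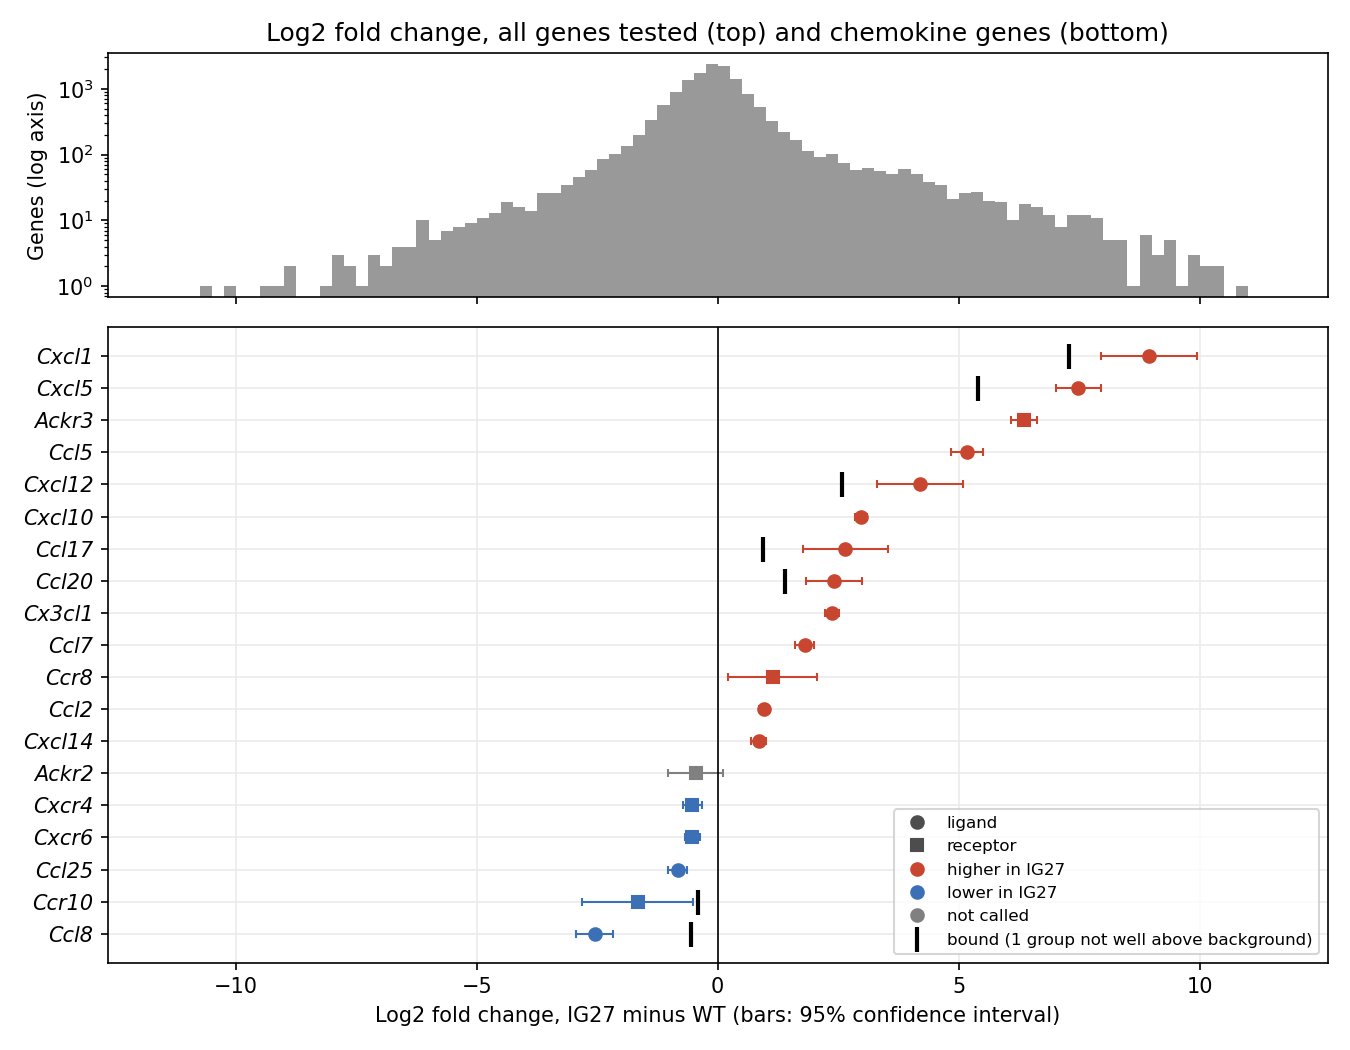
Log2 fold change, IG27 minus WT (x axis), of all 14898 genes tested (top, number of genes on a log axis in bins) and of the 19 tested chemokine ligands (circles) and receptors (squares). Bars are 95% confidence intervals, and black ticks give the bound for the 7 genes with 1 group not well above background. The fitted changes run from 8.96 for *Cxcl1* to -2.55 for *Ccl8*, and for the 7 genes the bound lies nearer to 0 than the fitted value.

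Most receptors of the ligands that rose were not detected in these cells. *Cxcr2*, the receptor of Cxcl1 and Cxcl5, was well above background on no array, and *Cxcr1* on 1 IG27 array. *Cxcr3*, which binds Cxcl10, was above background on 1 WT array. *Ccr2*, which binds Ccl2 and Ccl7, and *Ccr4*, which binds Ccl17, were on none, nor was *Cx3cr1*. *Ccr6*, the receptor of Ccl20, was above background on 1 IG27 array, with -4.93, -7.93 and -6.57 in IG27 cells and -7.72 to -8.34 in WT cells. For Cxcl12, in contrast, both receptors were measured in both lines. The arrays read RNA of whole cultures, in which fewer cells that express a gene and less RNA per cell cannot be told apart.

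Markers of other cell types were read on the same arrays. Of 19 myeloid and lymphoid markers on the array, 11 were tested, 4 higher and 4 lower in IG27 cells. Of all genes tested, 30.5% were higher and 40% lower. Levels were summed over all markers of a list on the array, tested or not, each at its brightest probe. For the 19 markers this sum, in units of the 75th percentile, was 23.5 to 24.2 in WT and 21.2 to 21.9 in IG27 cells. *Ptprc*, *Adgre1*, *Tyrobp*, *Trem2*, *Cd14*, *Lyz2*, *C1qa* and *C1qc*, which define leukocytes and microglia, did not pass the filter. Of 10 endothelial markers, 4 were tested, and the summed level of all 10 was 0.308 to 0.343 in WT and 3.59 to 3.63 in IG27 cells. *Kdr*, *Flt1* and *Vwf* were higher and *Pecam1* lower, while *Cdh5*, *Tek*, *Tie1*, *Cldn5*, *Emcn* and *Esam* did not pass the filter. Of 10 fibroblast and mural markers 6 were tested, 3 higher and 3 lower, and of 8 neuronal markers 4 were tested, 1 higher and 2 lower. The part of these genes in the chemokine values was not tested.

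Many chemokine genes lie side by side, and neighbors differed in their values. On chromosome 5, *Cxcl5* and *Cxcl1* were higher in IG27 cells, while *Cxcl3* and *Cxcl15*, which lie between them, were well above background on no array. Between *Cxcl5* and *Cxcl3* lie 2 coding genes that are not members. *Cxcl2*, next to *Cxcl1*, was well above background on 1 IG27 array. Further along, *Cxcl10* was higher and *Cxcl9* was not detected. On chromosome 11, *Ccl2* and *Ccl7* were higher, *Ccl11* and *Ccl12* were not detected, *Ccl8* was lower and *Ccl1* was not detected, in this order. In the other group on chromosome 11, *Ccl5* was higher and *Ccl9*, *Ccl6*, *Ccl3* and *Ccl4* were not detected. On chromosome 8, *Cx3cl1* and *Ccl17* lie next to each other and were both higher, and *Ccl22* beside them was not detected.

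**Figure D3:**
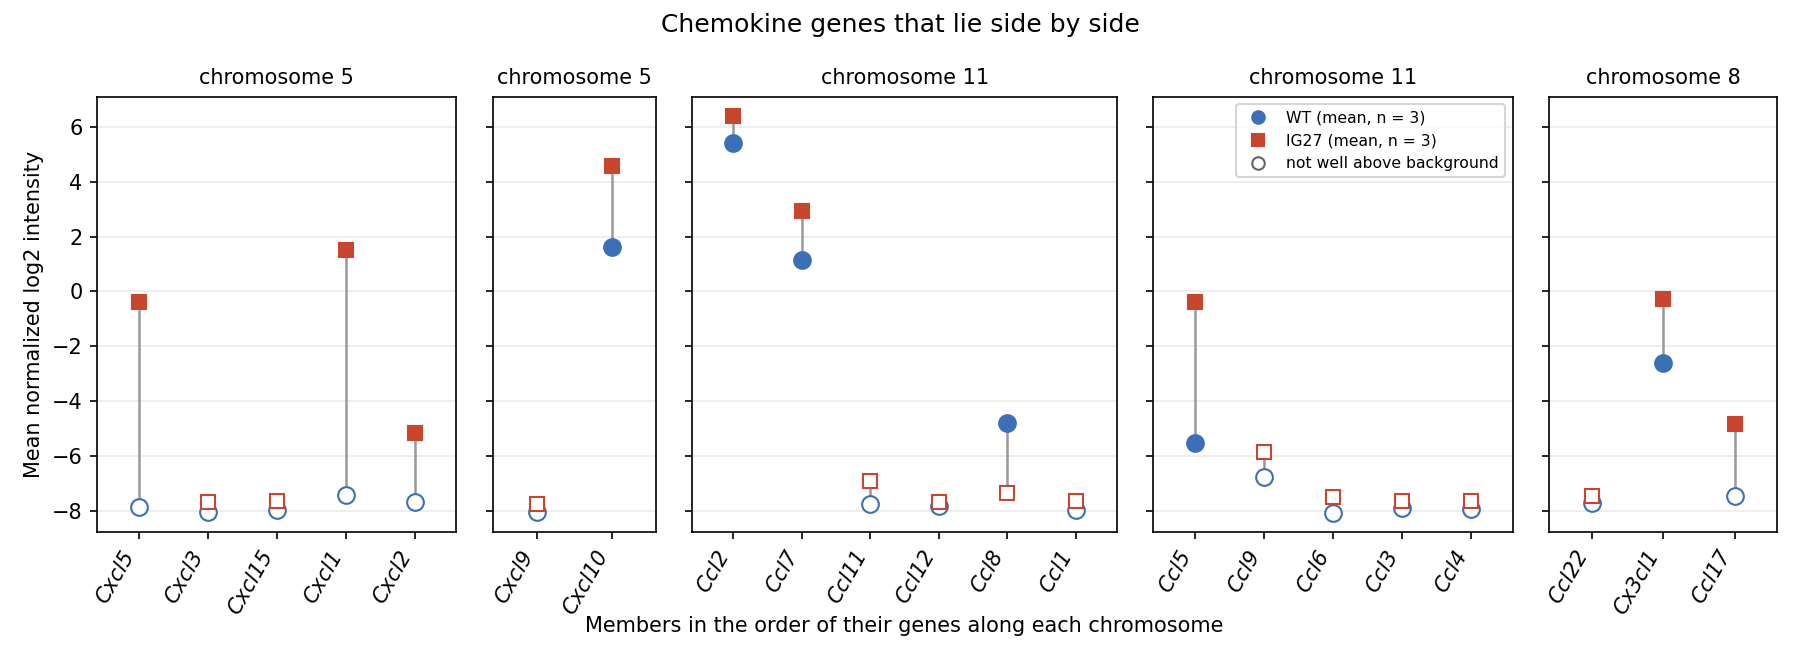
Mean normalized log2 intensity (y axis) of WT (circles) and IG27 cells (squares), n = 3 arrays each, for chemokine genes in 5 groups of neighbors, in the order of the genes along the chromosome (x axis, not to scale). Open symbols mark a group with no array well above background. In every group at least 1 gene was measured beside others that stayed at background, and *Ccl8* is the only one whose IG27 mean lies below its WT mean. Levels of different genes come from different probes and are not compared.

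Whole chromosomes also differed between the lines. The median log2 fold change was -0.67 over 769 tested genes of chromosome 8 and -0.64 over 813 of chromosome 9. *Ccl25* (-0.83) lies on chromosome 8, and *Ackr2* (-0.46) and *Cxcr6* (-0.53) lie on chromosome 9, so that each was within 0.18 of its chromosome. The part of this in the 3 values was not tested. On the same chromosomes, *Cx3cl1* and *Ccl17* were 3.03 and 3.32 above the median of chromosome 8, and *Ccr8* was 1.78 above that of chromosome 9. On chromosomes 1, 5, 6, 11 and 13, where the other tested members lie, the medians ran from -0.21 to 0.03.

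Of 40 genes of G proteins, receptor kinases, arrestins and effectors, 29 were tested, 6 higher and 13 lower in IG27 cells, with a median log2 fold change of -0.08. The 19 calls among 29 genes are near the 70.5% of all genes called. *Grk3*, a kinase that desensitizes activated receptors, was not above background in WT cells and was at least 45.9-fold higher in IG27 cells. *Pik3cd*, a catalytic subunit of phosphoinositide 3-kinase, and *Rgs16*, which shortens G protein signals, had log2 fold changes of 2.99 and 1.97. *Rgs4*, of the same family as *Rgs16*, was seen in WT cells alone, at least 7.51-fold lower in IG27 cells. *Arrb1*, an arrestin, and *Plcb4*, a phospholipase C, had log2 fold changes of -1.38 and -1.07. All 6 genes named here were called in limma, with adjusted p-values from 2.56e-07 to 9.84e-05.

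Among 19 genes related to chemokines by binding, shedding or family, 15 were tested, 6 higher and 7 lower in IG27 cells, with a median of -0.24, where 30.5% of all genes were higher and 40% lower. *Pf4*, a platelet chemokine outside the *Cxcl* naming, was not above background in WT cells and was at least 2.17-fold higher in IG27 cells, so it is among the 3 largest rises of these genes by its fitted value but not by its bound. *Cd74*, a receptor of the cytokine Mif, and *Ccrl2*, a receptor that binds chemerin without signaling, had log2 fold changes of 3.15 and 2.26. *Rarres2*, which encodes chemerin, had one of -2.26. *Adam10*, a protease that sheds Cx3cl1 and Cxcl16 from the membrane, had one of -2.08. *Cmtm7*, of a family with a chemokine-like name, had one of -4.22. These 6 genes were called in limma, with adjusted p-values from 7.75e-07 to 1.23e-04.

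NF-kappaB drives many inflammatory chemokine genes, and of 24 of its subunits and regulators 23 were tested, 11 higher and 7 lower in IG27 cells, with a median of 0.11. These 18 calls among 23 genes are also near the 70.5% of all genes. *Nfkbiz*, which encodes a nuclear cofactor of NF-kappaB, had a log2 fold change of 3.58. *Traf1*, an adaptor of tumor necrosis factor receptors, and *Tnfaip3*, a feedback inhibitor, had log2 fold changes of 2.44 and 2.37. *Ikbke*, a kinase of the pathway, was at background in IG27 cells, where it was at least 6.38-fold lower. *Irak1*, a kinase downstream of interleukin and Toll-like receptors, and *Ikbkg*, a subunit of the main kinase complex, had log2 fold changes of -1.25 and -1.10. For these 6 genes limma gave adjusted p-values from 4.14e-07 to 3.94e-05.

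**Figure D4:**
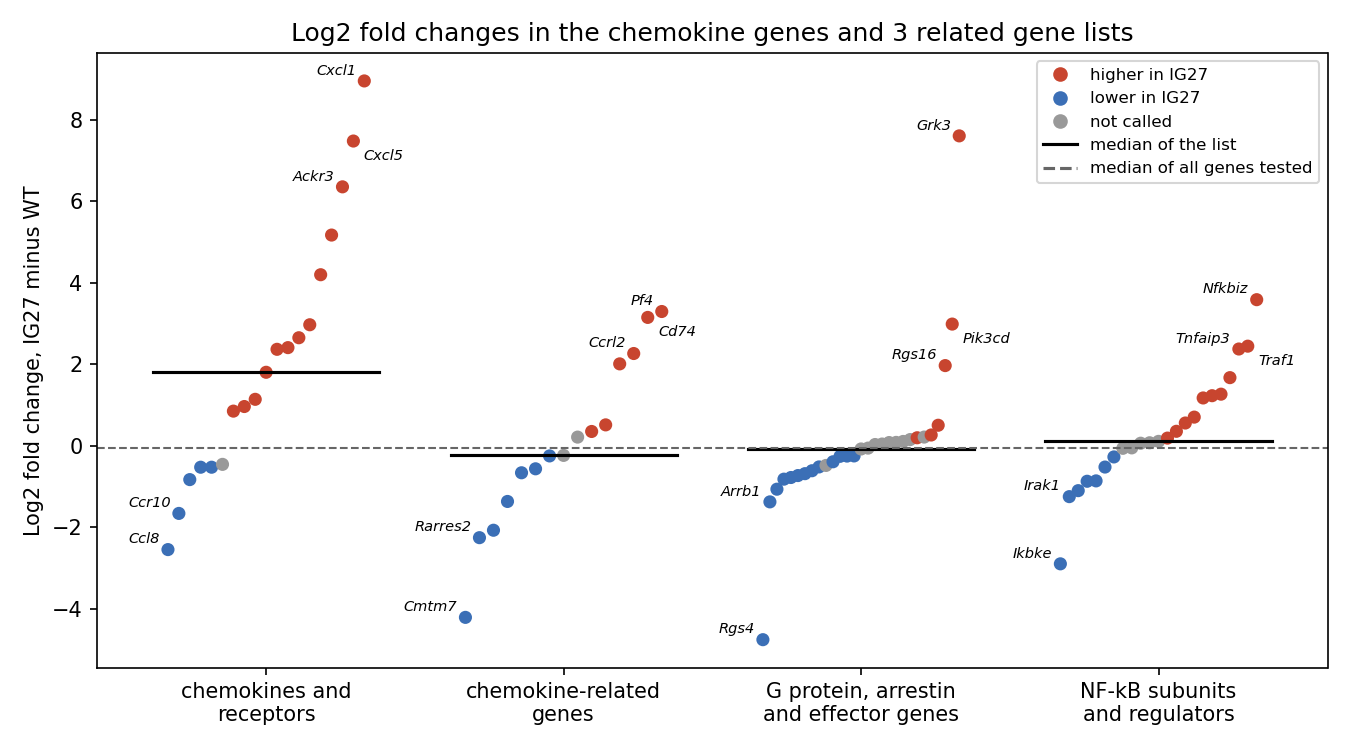
Log2 fold change, IG27 minus WT (y axis), of each tested gene (points) in the chemokines and receptors (19 genes) and in the lists of chemokine-related genes (15), G protein, arrestin and effector genes (29) and NF-kappaB genes (23), sorted within each list. Solid lines are list medians, 1.80, -0.24, -0.08 and 0.11, and the dashed line is the median of all genes tested, -0.07. Values of genes with 1 group at background, such as *Cxcl1* and *Grk3*, are fitted values and not bounds, and with bounds the median of the chemokines and receptors was 1.14.

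With normexp background correction (offset 50) of the median signals of the 5 complete arrays, which changes several steps together, the log2 fold change fell to 5.37 for *Cxcl1*, 3.56 for *Cxcl5*, 3.46 for *Ccl5*, 1.46 for *Cxcl12*, 0.70 for *Ccl17* and 0.64 for *Ccl20*, and was 0.56 for *Ccr8*, -0.64 for *Ccl8* and -0.37 for *Ccr10*. All 9 kept their direction and their call in limma, in a setting that called 67.3% of all genes tested. Under the same setting *Ackr3* had a log2 fold change of 5.37 and *Cxcl10* of 2.87.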

How the data were processed

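RNA of 3 WT and 3 IG27 dishes was read on Agilent mouse arrays in 1 color (Cy3). The deposited intensity is the processed signal the authors obtained with Feature Extraction (version 9.1 in the submitters' processing notes, 10.7.3.1 in the file headers) on a linear scale. The scanner output of IG27 replicate 2 holds 285 of 62976 spots, so its values came from the deposited value table. In that table WT replicates 2 and 3 are exchanged relative to the scanner output (56305 of 56305 single-spot probes, relative tolerance 1e-04), and the scanner labels were used.

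Levels were log2 signals from which the array's 75th percentile was subtracted, without outlier spots. Probes were named through RefSeq accessions with the GRCm38.p6 table (32994 of 35886 probes with such an accession, 22911 genes), since no genome of the array build (mm9) was used here. The brightest probe well above background on all complete arrays of 1 group or both represented a gene. All 6 arrays were compared by a moderated two-sided test in limma 3.58.1 (R 4.3.3) without a block, with Benjamini-Hochberg adjustment over all genes tested and a threshold of 0.05. Where a group was not well above background, "at least" folds use, per array, the higher of the lowest signal well above background and the probe's own value. P-values of such genes belong to the fitted log2 fold change and not to the bound. Values on each array are given for called members with an absolute log2 fold change of at least 1 or with 1 group at background, and for *Cxcl12*, *Cxcr4*, *Ackr3*, *Ccl2*, *Cxcl1*, *Cx3cl1* and *Cxcl10*. From each list at most 3 rises and 3 falls are named, the largest by fitted log2 fold change. *Cxcl2* and *Ccr6* were given on each array after their values were seen. Members and lists were chosen with earlier results of these data known. The ELR class is from general knowledge. The test was checked on simulated normal values in which few genes changed. That check did not cover normalization, the filter, signals at background or a share of changed genes as large as here. Alternatives varied the source of the values, normalization, background correction, filter, outlier spots, probes per gene, moderation, blocks (replicate number, slide row), threshold and the arrays used, and 3 arrays per group limit the precision.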

Additional observations from a re-analysis of the deposited data

How the results depend on the processing

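Of the 18 alternatives, using the 5 complete arrays and leaving out IG27 replicate 2 are the same fit. No tested member changed direction in any of them, and 9 of the 18, that pair included, kept all 18 calls. The count of called members was 16 to 18 (12 to 14 higher, 4 to 5 lower) when 1 array was left out, and the median log2 fold change was 1.66 to 1.98. The same fits called 65.4% to 67.6% of all genes tested. With probes well above background on every complete array, 9 members were tested and 9 called, 6 higher and 3 lower, with a median of 0.96. Under that filter 70.8% of all genes tested were called. The median was 0.70 with normexp and 0.36 without the filter, which let in all 57 members and moved the median of all genes from -0.07 to 0.12. *Ccr8* lost its call under quantile normalization (adjusted p = 0.0918 in limma), without the filter (0.0722), with the slide row as a block (0.188), and without any 1 of the WT arrays or IG27 replicate 1 (0.0650 to 0.0907). *Ccr10* lost it with the slide row as a block (0.0548) and without WT replicate 1 (0.0514), WT replicate 2 (0.0610), IG27 replicate 1 (0.0608) or IG27 replicate 3 (0.0681). *Ackr2* was called under quantile normalization (log2 fold change -0.73, adjusted p = 0.0470 in limma). With 1 array of a group left out, or with the block of slide row, the cause of a lost call was not tested.

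Samples with the same replicate number had deviations from the group means that correlated with r of 0.01, 0.04 and 0.08 across genes. Samples with different numbers had r from -0.09 to 0.06. All were near 0, and the labels of WT replicates 2 and 3 differ between the value table and the scanner output. The numbers were therefore not taken to pair the dishes. With the replicate number as a block, 19 members were called, 13 higher and 6 lower, with the same median of 1.80, and *Ackr2* was called (log2 fold change -0.46, adjusted p = 0.0152 in limma). That fit called 69.2% of all genes tested. Signals at or near background limit what could be seen of the members not tested.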
